A study of Mus musculus with 12 samples.

Results

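The 55 genes described here encode the machinery of mitosis: the cyclins and kinases that start it, the spindle checkpoint, the proteins that release anaphase, the chromosomal passenger complex, mitotic kinesins, centromere and kinetochore proteins, condensin with other proteins of the mitotic chromosome, and proteins of spindle assembly and cytokinesis. They were chosen by name, and each symbol was matched to an Ensembl gene ID of the count table. All 55 had a row among the 56941 gene IDs, and all 55 were among the 15001 genes with enough counts to be tested.

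RNA was sequenced from RAW264.7 cells, a transformed mouse macrophage line that divides in culture, grown on porous inserts. All libraries come from this line. In the control group (n = 6) a cushion of agarose in culture medium lay on the cells for 24 h. In the compressed group (n = 6) the same cushion carried a 3-D printed weight that applied 0.14 kPa. Whether a group's libraries were cultured separately is not stated, so the p-values measure the spread between these libraries, which may be technical.

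As a cell enters mitosis, cyclin B binds Cdk1, condensin compacts the chromosomes, and kinesins build a bipolar spindle whose microtubules attach to kinetochores, protein plates that form on the centromere of each chromosome. The spindle checkpoint holds the anaphase-promoting complex inactive until the kinetochores are attached, after which Cdc20 activates the complex, securin is destroyed, separase opens cohesin and the chromatids part. The mRNAs of these genes accumulate late in the cell cycle, and many of their promoters carry a CCAAT box, bound by NF-Y, together with a cell cycle genes homology region (CHR), through which the MuvB complex acts with B-Myb and FoxM1. In a macrophage culture such transcripts come mainly from cells that are cycling.

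Libraries held 37948795 to 40463545 counts in the control group and 33460807 to 39103987 in the compressed group, and no member had fewer than 138 counts in any library, so counting error was small. Levels are CPM, gene counts scaled to library size after TMM normalization, and fold changes are log2 of compressed over control. The 12 macrophage markers checked were all detected. Their summed level was 6920 to 7420 CPM in control and 8440 to 10700 CPM in compressed libraries, with 5 called higher and 3 lower, while summed markers of fibroblasts, epithelium, lymphocytes and neutrophils stayed under 1 CPM in every library, with Col3a1, Cldn4, Cd3e, Cd8a, Ms4a1, S100a9, Ly6g and Retnlg at 0 counts throughout. Compressed replicate 6 stood apart from the rest of its group: its log2 CPM correlated with other compressed libraries at 0.968 to 0.975, against 0.994 to 0.996 among compressed replicates 1 to 5 and 0.996 to 0.997 among controls. Values without it are therefore given beside the results that rest on it.

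The sequences below are the 120 bases before a transcript start of 8 members whose windows hold CHR letters, and of Ccnb1. Espl1 and Bub3 are among the 8 as the most and the least changed with all libraries. The Ccnb1 window holds CCAAT boxes and neither CHR spelling searched for, and other spellings were not searched for. They come from RefSeq's annotation of GRCm38.p6, are written 5′ to 3′ toward the gene, and show in capitals each match to TTTGAA or TTCGAA (CHR, read on either strand, so also TTCAAA) and to CCAAT (or ATTGG on the other strand).
Cdk1, chr10:69352913-69353032, minus strand: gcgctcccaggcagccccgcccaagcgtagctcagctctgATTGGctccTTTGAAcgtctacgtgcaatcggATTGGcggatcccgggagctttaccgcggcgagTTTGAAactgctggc
Cdc20, chr4:118437344-118437463, minus strand: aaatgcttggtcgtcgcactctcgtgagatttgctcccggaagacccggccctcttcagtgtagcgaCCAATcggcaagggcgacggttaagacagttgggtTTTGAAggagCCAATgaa
Espl1, chr15:102296173-102296292, plus strand: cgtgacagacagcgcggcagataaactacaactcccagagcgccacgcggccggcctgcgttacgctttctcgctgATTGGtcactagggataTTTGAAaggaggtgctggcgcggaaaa
Kif11, chr19:37376262-37376381, plus strand: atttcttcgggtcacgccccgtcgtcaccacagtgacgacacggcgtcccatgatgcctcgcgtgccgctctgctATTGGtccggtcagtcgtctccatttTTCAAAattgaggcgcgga
Kif22, chr7:127042421-127042540, minus strand: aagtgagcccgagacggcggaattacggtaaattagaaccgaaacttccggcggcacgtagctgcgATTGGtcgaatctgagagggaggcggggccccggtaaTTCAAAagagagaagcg
Top2a, chr11:99024190-99024309, minus strand: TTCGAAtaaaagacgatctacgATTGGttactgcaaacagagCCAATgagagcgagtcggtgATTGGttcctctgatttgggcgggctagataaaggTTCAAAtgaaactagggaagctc
Ncapg2, chr12:116405316-116405435, plus strand: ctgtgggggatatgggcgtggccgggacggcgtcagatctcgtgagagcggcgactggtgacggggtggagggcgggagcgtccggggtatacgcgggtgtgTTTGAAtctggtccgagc
Bub3, chr7:131560250-131560369, plus strand: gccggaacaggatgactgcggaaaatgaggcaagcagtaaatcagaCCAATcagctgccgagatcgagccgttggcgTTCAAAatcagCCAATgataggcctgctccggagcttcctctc
Ccnb1, chr13:100786487-100786606, minus strand: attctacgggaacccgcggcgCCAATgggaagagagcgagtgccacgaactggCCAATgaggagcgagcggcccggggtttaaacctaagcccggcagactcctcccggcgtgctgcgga

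In the windows printed above the CHR match nearest to the start began 18 bases before it in Cdc20 and Ncapg2, 17 in Kif22, 19 in Kif11, 27 in Espl1, 23 in Top2a, 15 in Cdk1 and 43 in Bub3. Top2a and Cdk1 hold a further match each, 120 and 71 bases before the start. CCAAT boxes stood upstream of the nearest match in 7 of these 8 genes, and Ncapg2 has no CCAAT letters in the stretch shown. Bub3 has another annotated start downstream of the one shown, and the 120 bases before it hold no CHR or CCAAT match. A promoter window was on hand for 48 of the 55 members (250 bases before the start to 50 after it), and Kif20a, Smc4, Incenp, Aurkb, Ccna2, Tpx2 and Spc24 have no entry. CHR letters were found in 36 of the 48 (75%), against 21.7% of 27025 genes with a window, and CCAAT in 34 (70.8%), against 41.1%. Both were found in 29 (60.4%), against 8.61% of all genes. The 7-letter E2F site (TTT, then G or C in positions 4 and 5, then CG) was found in 9 (18.8%), against 7.65%.

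Position was examined after these counts were seen. The first base of a CHR match lay in the first 50 bases of the transcript in 20 members (41.7%, against 2.87% of all genes) and in the 50 bases before it in 12 (25%, against 3.49%). CCAAT lay 51 to 150 bases before the start in 24 members (50%, against 21.5%), in the 50 bases before it in 20 (41.7%, against 10.5%) and in the first 50 bases of the transcript in 5 (10.4%, against 6.04%). Restricting the search to the 150 bases before the start left CHR in 35.4% of members (11.2% of genes) and CHR with CCAAT in 27.1% (2.85%). A match of letters is no evidence that a factor binds there, and the size of the change did not follow it closely: the median log2 fold change was -0.96 in the 36 members with CHR letters and -0.89 in the 12 without. Only TTTGAA and TTCGAA were counted as CHR letters, so the 12 were not searched for other spellings.

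All 55 members fell under compression by edgeR's quasi-likelihood test (adjusted p of 0.05 or less over all tested genes), where 21.9% of tested genes fell. None rose (0 at an unadjusted p under 0.05 and 0 by DESeq2), and DESeq2 called the same 55 lower. The median log2 fold change was -0.91, ranging from -1.23 for Espl1 to -0.34 for Bub3, and the median of all tested genes was 0.022. Of all tested genes, 2.25% had a log2 fold change below the median of the members. Below -1 lay 19 members, against 1.44% of tested genes. In 52 members every compressed library was below every control library, which held for 17% of tested genes. Pttg1, Cenph and Bub3 are the other 3, and in each the overlap came from compressed replicate 6 alone. Without that library all 55 were again called lower (32.2% of tested genes), with a median of -0.90 and 14 members below -1 (share of tested genes not computed). The extremes were then Cdc20 (-1.16, with Espl1 at -1.13) and Bub1 (-0.33, with Bub3 at -0.44).

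**Figure D1:**
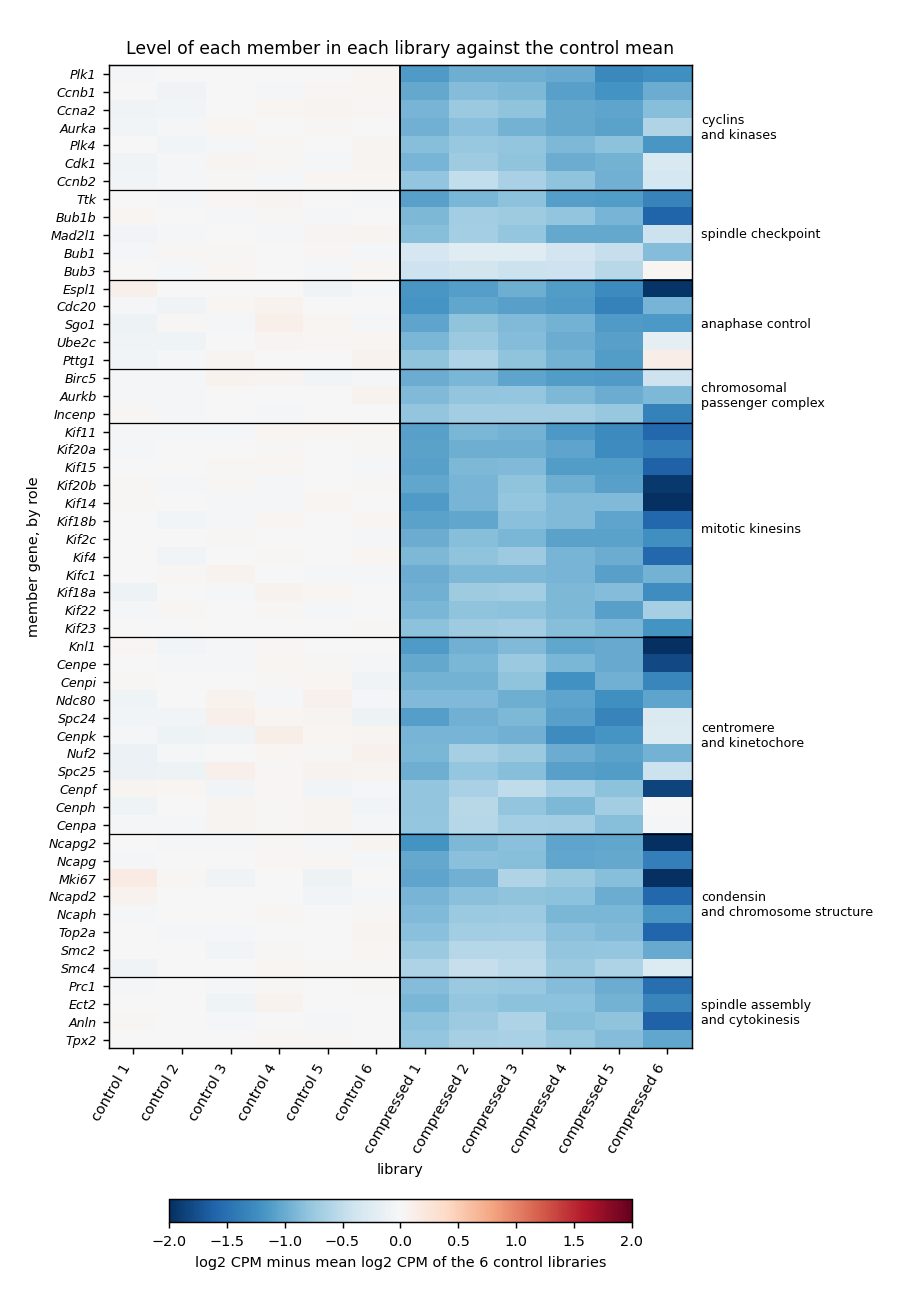
Log2 CPM of each of the 55 genes in each library minus the mean of the 6 control libraries, with genes in rows by role and libraries in columns; blue is lower, red higher, and colors are capped at -2 and 2. The control columns stay near 0, compressed replicates 1 to 5 are blue throughout, and compressed replicate 6 ranges from far below the others (Mki67, Knl1) to the control level (Pttg1, Bub3, Cenph).

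Summed over the members, expression was 7080 ± 61.8 CPM in control (SD, n = 6, 7000 to 7150) and 3860 ± 371 CPM in compressed libraries (n = 6, 3250 to 4280), which is 54.5% of the control level and 56.2% without compressed replicate 6, the library with the lowest sum. The members took 0.723% ± 0.00725 of all counts in control and 0.377% ± 0.0383 in compressed libraries. In bulk RNA, fewer cells in mitosis and less of each mRNA per cell cannot be told apart. The order of abundance was nearly kept. Per kilobase of exon, Mki67 (80.7 CPM per kb), Ccnb2 (69.2) and Cdc20 (63.9) led the members in control, and Kif14 (4.47), Kif18a (3.13) and Cenpk (1.94) came last. Across the 55 members, levels per kilobase in the 2 groups had a Spearman correlation of 0.98, a description across genes that share libraries.

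Among the 7 cyclins and kinases the median log2 fold change was -0.90. No gene overlapped between the groups, where 17% of tested genes had every compressed library below every control library. Plk1 (ENSMUSG00000030867), the polo-like kinase that drives mitotic entry and spindle formation, changed most: it was at 108 to 114 CPM in control (median 110) and 45.2 to 56.5 in compressed libraries (median 52.6). Compressed libraries spread more than controls (SD of log2 CPM 0.133 against 0.0247), and the change was -1.10 ± 0.06 (SE, edgeR adjusted p = 6.26e-09). Ccnb2 (ENSMUSG00000032218), a B-type cyclin, changed least. It ranged from 102 to 109 CPM in control (median 106) and from 54.2 to 82.7 in compressed libraries (median 64.5), a change of -0.66 ± 0.09 (edgeR adjusted p = 2.97e-05). Between them lay Ccnb1, the major mitotic cyclin (-1.01), Aurka, the kinase of centrosome maturation (-0.90), Ccna2, the cyclin of S phase and G2 (-0.90), Plk4, which starts centriole duplication (-0.87), and Cdk1, the mitotic kinase itself (-0.76).

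The 5 checkpoint genes fell unevenly. Ttk (ENSMUSG00000038379), the kinase Mps1 that starts checkpoint signalling at unattached kinetochores, was at 47.1 to 50.3 CPM in control (median 48.7) and 19.3 to 27.4 in compressed libraries (median 22.8), with no overlap and a log2 fold change of -1.05 ± 0.07 (edgeR adjusted p = 5.95e-08). Bub3 (ENSMUSG00000066979), which docks Bub1 and BubR1 at kinetochores and also has roles outside mitosis, was at 189 to 200 CPM in control (median 193) and 133 to 199 in compressed libraries (median 146). Its highest compressed value was replicate 6, inside the control range, while replicates 1 to 5 lay between 133 and 150. The log2 fold change of Bub3 was -0.34 ± 0.08 (edgeR adjusted p = 0.00343) and -0.44 without replicate 6. In an alternative fit, each library's trend with exon length, in log2 CPM minus the gene's mean, was removed. The log2 fold change of Bub3 was then -0.27 with an edgeR adjusted p of 0.0938, the only one of the 55 calls lost under the alternatives run. Bub1b, which encodes BubR1, fell by 0.91 on the log2 scale, Mad2l1, which encodes the checkpoint protein Mad2, by 0.78, and the kinase Bub1 by 0.41.

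Within a library, the ratio of Bub1b to Bub3 counts was 0.19 ± 0.05 on the log2 scale in control (SD, n = 6) and -0.39 ± 0.52 in compressed libraries. This pair, like the others below, was chosen with earlier results of these data known. The ratio fell in all 6 compressed libraries, by 0.58 on average and by 0.37 without replicate 6 (exact permutation test over 924 splits, two-sided, p = 0.00216, the smallest such a design can give; adjusted over 10 ratios 0.00309). Checkpoint genes thus did not fall in step, and the size of the gap depended on replicate 6, in which the ratio was -1.45.

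The 5 genes of anaphase control had a median of -0.99. Espl1 (ENSMUSG00000058290), which encodes separase, was at 108 to 121 CPM in control (median 113) and 29.1 to 57.1 in compressed libraries (median 51.4). All compressed libraries were low and replicate 6 the lowest, and the log2 fold change was -1.23 ± 0.13 (edgeR adjusted p = 2.52e-06), or -1.13 without replicate 6. Pttg1 (ENSMUSG00000020415), which encodes securin, the inhibitor of separase, was at 56.8 to 61.9 CPM in control (median 58.9) and 27.2 to 65.1 in compressed libraries (median 33.9). Here replicate 6 lay above every control library and the other 5 lay at 38.5 CPM or less. The change of Pttg1 was -0.63 ± 0.17 (edgeR adjusted p = 0.00728) and -0.85 without replicate 6.

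The log2 ratio of Espl1 to Pttg1 was 0.93 ± 0.09 in control and 0.36 ± 0.76 in compressed libraries, a difference of -0.57 (exact permutation test, p = 0.00216, adjusted 0.00309) that was -0.27 without replicate 6. Separase mRNA therefore fell more than that of its inhibitor in these libraries, by an amount set largely by replicate 6, where the ratio was -1.16. Cdc20, the mitotic activator of the anaphase-promoting complex, fell by 1.11 on the log2 scale, Sgo1, the protector of centromeric cohesion, by 0.99, and Ube2c, the ubiquitin-conjugating enzyme of that complex, by 0.77. The ratio of Cdc20 to Fzr1, which encodes the activator used after anaphase and in G1, was 0.42 ± 0.06 in control and -0.47 ± 0.08 in compressed libraries, so that Cdc20 fell by 0.89 relative to Fzr1 (exact permutation test, p = 0.00216, adjusted 0.00309), and by 0.90 without replicate 6.

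The chromosomal passenger complex, which corrects faulty attachments and guides cytokinesis, fell in all 3 subunits measured, with log2 fold changes of -0.92, -0.87 and -0.82 for Birc5, Aurkb and Incenp, which were farther apart without replicate 6 (-1.04, -0.86 and -0.73). Birc5 (ENSMUSG00000017716), which encodes survivin, was at 75.9 to 82.3 CPM in control (median 77.5) and 35.7 to 58.7 in compressed libraries (median 38.6; SE 0.11, edgeR adjusted p = 8.81e-06). Incenp (ENSMUSG00000024660), the scaffold of the complex, was at 194 to 200 CPM in control (median 197) and 76.7 to 122 in compressed libraries (median 118; SE 0.09, edgeR adjusted p = 8.70e-06). Replicate 6 was the highest compressed library for Birc5 and the lowest for Incenp, and the groups overlapped for neither. Aurka and Aurkb, the kinases of spindle pole and passenger complex, had a log2 ratio of 0.31 ± 0.04 in control and 0.27 ± 0.17 in compressed libraries. That difference of -0.03 was within the spread (exact permutation test, p = 0.749, adjusted 0.749), and without replicate 6 it was -0.10 with an adjusted p of 0.0108.

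The 12 mitotic kinesins had a median log2 fold change of -1.04, and 7 of them lay below -1, against 1.44% of tested genes. Without replicate 6 the median was -0.96, as it was for anaphase control and for the centromere and kinetochore genes, and 3 kinesins lay below -1. For that fit the share of tested genes below -1 was not computed. Kif11 (ENSMUSG00000012443), the tetrameric kinesin Eg5 that pushes spindle poles apart, was at 128 to 135 CPM in control (median 132) and 44.5 to 70.2 in compressed libraries (median 60.9). The compressed libraries spread more than the controls without reaching them, and the log2 fold change was -1.14 ± 0.09 (edgeR adjusted p = 2.90e-07). Kif23 (ENSMUSG00000032254), the kinesin of centralspindlin at the central spindle, changed least, from 132 to 135 CPM in control (median 133) to 58.3 to 82.2 in compressed libraries (median 74.5), a change of -0.85 ± 0.07 (edgeR adjusted p = 4.07e-07). Kif20a, needed in cytokinesis, was at -1.11, Kif15, which can share the work of Eg5, at -1.10, Kif20b at -1.09, Kif14 and Kif18b at -1.06 and the microtubule depolymerase Kif2c at -1.02. Kif4, the chromokinesin, was at -0.97, the minus-end motor Kifc1 at -0.96, Kif18a, which dampens chromosome oscillation, at -0.89 and Kif22 at -0.86.

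Kinesins that carry cargo in interphase did not fall as a group. Of 21 motors and light chains of intracellular transport, 18 were tested, with a median log2 fold change of 0.10. Of these 5 rose and 1 fell (27.8% and 5.56%, where 24.5% and 21.9% of all tested genes did). Kif17 was the lower gene, at 1.15 CPM in control and 0.333 CPM in compressed libraries (-1.78). Kif21b (0.70), Kif3c (0.28) and Kif3a (0.26) were the 3 with the largest increase, and without replicate 6 the counts were 11 higher and 2 lower (33.8% and 32.2% of all tested genes). Kif5b, the conventional kinesin heavy chain, was at 242 ± 3.62 CPM in control and 232 ± 12.0 in compressed libraries (edgeR adjusted p = 0.274). The log2 ratio of Kif11 to Kif5b was -0.88 ± 0.02 in control and -1.97 ± 0.21 in compressed libraries, with no overlap and a difference of -1.09 (exact permutation test, p = 0.00216, adjusted 0.00309).

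**Figure D2:**
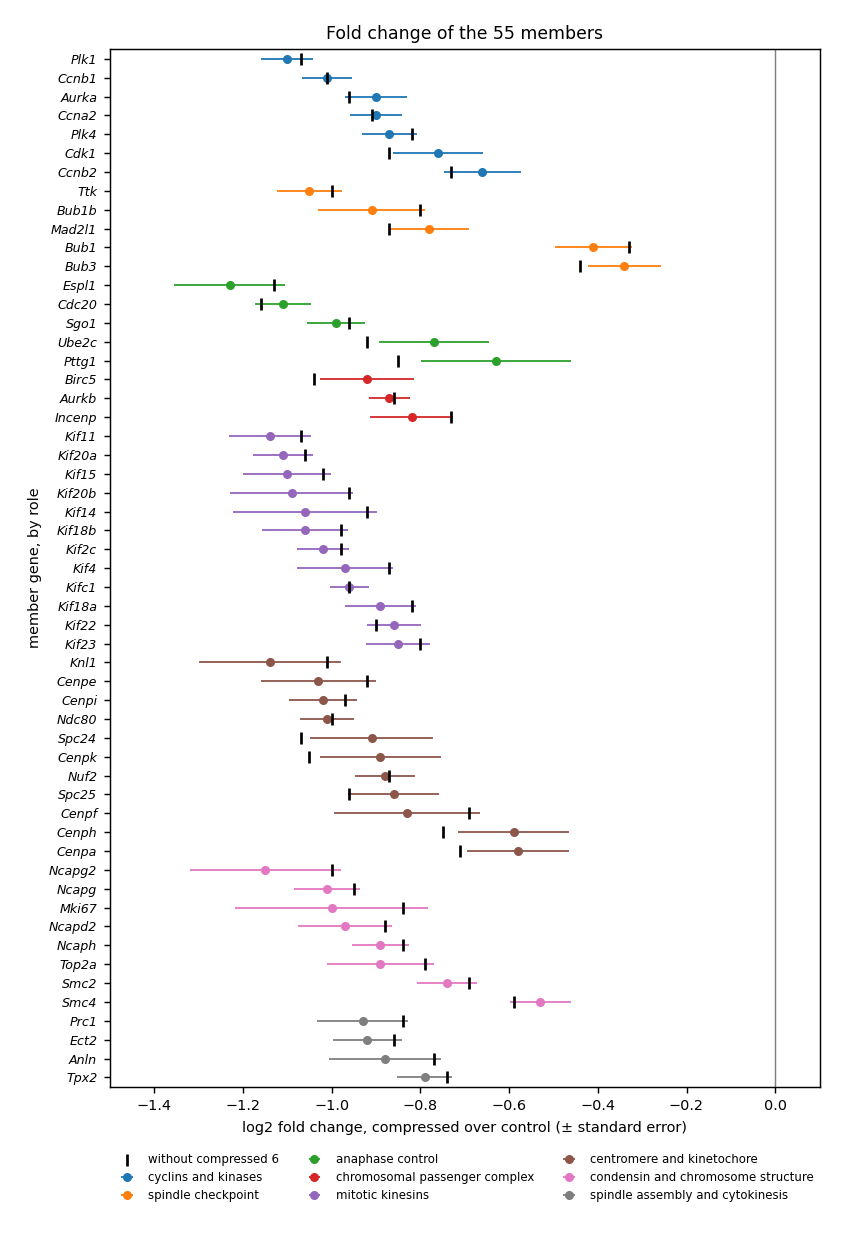
Log2 fold change of each member (x axis, compressed over control) with its standard error, colored by role, and the value without compressed replicate 6 as a black tick. All 55 points lie left of 0, from -1.23 (Espl1) to -0.34 (Bub3), and the ticks without replicate 6 lie left of 0 too.

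The 11 centromere and kinetochore genes had a median of -0.89. Knl1 (ENSMUSG00000027326), the scaffold that binds microtubules together with Ndc80 and recruits the checkpoint proteins, was at 95.7 to 102 CPM in control (median 99.7) and 22.3 to 54.0 in compressed libraries (median 48.7), with replicate 6 the lowest by a wide gap. Its log2 fold change was -1.14 ± 0.16 (edgeR adjusted p = 4.86e-05), or -1.01 without replicate 6. Cenpa (ENSMUSG00000029177), the histone variant that marks the centromere, changed least with all libraries (without replicate 6 Cenpf did, at -0.69): it was at 110 to 117 CPM in control (median 112) and 62.5 to 110 in compressed libraries (median 70.4). Replicate 6, the highest compressed library, came just under the lowest control, and the change was -0.58 ± 0.11 (edgeR adjusted p = 8.88e-04), or -0.71 without it.

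The 4 subunits of the Ndc80 complex, which grips the microtubule end, all fell, Ndc80 at -1.01, Spc24 at -0.91, Nuf2 at -0.88 and Spc25 at -0.86. They parted in replicate 6, at -1.05 for Ndc80 and -0.94 for Nuf2 against the control mean, but -0.28 for Spc24 and -0.44 for Spc25. Without replicate 6 the changes were -1.07 (Spc24), -1.0 (Ndc80), -0.96 (Spc25) and -0.87 (Nuf2). The kinetochore motor Cenpe was at -1.03 and Cenpf, a large protein of the outer kinetochore, at -0.83. Of the inner kinetochore proteins, Cenpi was at -1.02, Cenpk at -0.89 and Cenph at -0.59, and Cenph is a gene whose groups overlapped through replicate 6.

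Condensin and chromosome structure held both strong and weak changes, with a median of -0.93. Ncapg2 (ENSMUSG00000042029), a subunit of condensin II, was at 101 to 106 CPM in control (median 102) and 22.2 to 57.5 in compressed libraries (median 49.8). Replicate 6 was again the lowest, and the log2 fold change was -1.15 ± 0.17 (edgeR adjusted p = 8.55e-05), or -1.0 without it. Smc4 (ENSMUSG00000034349), an ATPase core subunit shared by both condensins, was at 230 to 247 CPM in control (median 243) and 144 to 200 in compressed libraries (median 163), a change of -0.53 ± 0.07 (edgeR adjusted p = 2.55e-05). The subunits particular to condensin I were at -1.01 (Ncapg), -0.97 (Ncapd2) and -0.89 (Ncaph), and Smc2, the partner of Smc4, at -0.74.

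Ncapg and Ncapg2, the counterparts of each other in condensin I and II, had a log2 ratio of 0.00 ± 0.04 in control and 0.18 ± 0.33 in compressed libraries. The difference of 0.19 did not pass (exact permutation test, p = 0.0866, adjusted 0.108). It was 0.06 without replicate 6 and 0.23 without replicate 3, where the adjusted p was 0.0487. For Smc2 against Smc3, its counterpart in cohesin, the log2 ratio was 0.27 ± 0.04 in control and 0.11 ± 0.07 in compressed libraries, a difference of -0.15 with or without replicate 6 (exact permutation test, p = 0.00216, adjusted 0.00309). The 2 further condensin II subunits measured were Ncapd3, which fell (-0.66 ± 0.14, edgeR adjusted p = 0.00122), and Ncaph2, at 167 ± 3.62 CPM in control and 154 ± 8.21 in compressed libraries (-0.11, edgeR adjusted p = 0.0515, and called lower by DESeq2).

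Mki67, the source of the proliferation antigen Ki-67 that coats mitotic chromosomes, went from 812 ± 52.4 to 405 ± 134 CPM (-1.0 ± 0.22, edgeR adjusted p = 0.0018, and -0.84 without replicate 6). Top2a, the topoisomerase that untangles sister chromatids, went from 502 ± 9.27 to 271 ± 53.8 CPM (-0.89 ± 0.12, edgeR adjusted p = 3.50e-05, and -0.79 without replicate 6). Mki67 was at 152 CPM in replicate 6 and at 391 to 533 in the other compressed libraries. The log2 ratio of Mki67 to Top2a was 0.69 ± 0.09 in control and 0.51 ± 0.35 in compressed libraries, a difference of -0.18 within the spread (exact permutation test, p = 0.245, adjusted 0.272), and -0.05 without replicate 6.

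The 4 genes of spindle assembly and cytokinesis changed by similar amounts. Prc1 (ENSMUSG00000038943), which bundles the microtubules of the central spindle, was at 113 to 119 CPM in control (median 117) and 41 to 69.5 in compressed libraries (median 63.7), a change of -0.93 ± 0.10 (edgeR adjusted p = 5.66e-06). Tpx2 (ENSMUSG00000027469), the activator of Aurora A and of microtubule nucleation near chromatin, was at 222 to 228 CPM in control (median 223) and 109 to 143 in compressed libraries (median 132), a change of -0.79 ± 0.06 (edgeR adjusted p = 2.11e-07). The groups overlapped for neither gene. Ect2, the exchange factor that turns on RhoA at the cleavage furrow, was at -0.92 and the scaffold Anln at -0.88.

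Proportions between genes shifted in 7 of the 10 ratios computed, 4 of them between members, with no overlap between the groups (each at an exact permutation p of 0.00216, adjusted 0.00309). Besides those given above, Plk1 fell by 0.22 relative to Plk4 (0.61 ± 0.03 in control, 0.39 ± 0.15 in compressed libraries) and Ccnb1 by 0.11 relative to Ccna2 (-0.32 ± 0.04 and -0.42 ± 0.03). These ratios compare counts of genes within a library, so they do not depend on how libraries were scaled. The pairs were chosen with earlier results known, and the share of other gene pairs without overlap was not computed. Of single tested genes, 17% had every compressed library below every control library and 16.5% had every one above.

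**Figure D3:**
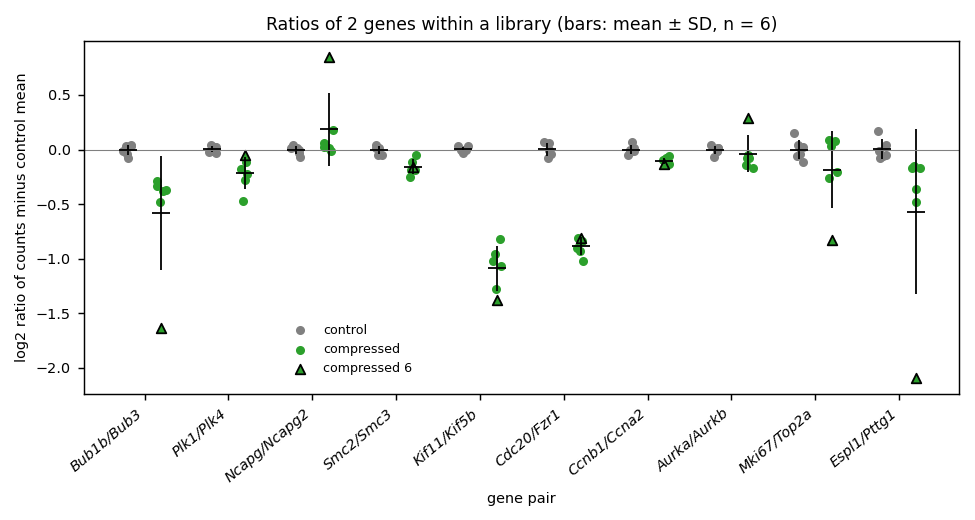
Log2 ratio of the counts of 2 genes within each library, minus its control mean (y axis), for 10 pairs (x axis), with control libraries in grey, compressed libraries in green, compressed replicate 6 as a triangle and bars at the mean ± SD (n = 6). Kif11/Kif5b (-1.09) and Cdc20/Fzr1 (-0.89) moved in every compressed library, while Ncapg/Ncapg2, Aurka/Aurkb and Mki67/Top2a overlap with control.

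Compressed libraries were more variable than controls at these genes. The median over members of the within-group SD of log2 CPM was 0.0388 in control and 0.231 in compressed libraries (0.0737 and 0.242 over all tested genes), and 0.111 in compressed replicates 1 to 5 alone (0.0972 over all tested genes). Replicates 1 to 5 differed in a shared way: replicates 2 and 3 were both above replicates 1, 4 and 5 in 43 of the 55 members, an order found in 10.9% of tested genes, and replicate 5 was the lowest of these 5 in 36 members (24.3% of tested genes). Median levels over members, as log2 against the control mean, were -0.92, -0.80, -0.81, -0.93 and -1.01 in replicates 1 to 5. These genes were measured in the same libraries, and this order is a description of the libraries.

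Replicate 6 differed from the other compressed libraries in another way, gene by gene. It was the lowest compressed library for 32 members and the highest for 16 (40.6% and 41.4% of tested genes), and the difference went with exon length. Its log2 CPM minus the mean of replicates 1 to 5 had a Spearman correlation with the exon length of the gene of -0.68 across the 55 members and -0.55 across 14647 tested genes with a length. The 19 members of 1531 to 4329 bases had a median difference of 0.05, the 18 of 4338 to 6855 bases -0.31 and the 18 of 6957 to 15433 bases -0.82. Smaller deviations of other libraries also went with length. Each of replicates 1 to 5 minus the mean of the other 4 had a Spearman correlation with exon length of -0.41, -0.44, 0.49, 0.05 and 0.40 across the members, with differences of no more than 0.33 in size. Pttg1 (2000 bases) was 1.00 higher in replicate 6 than in the mean of the others, and Mki67 (10061 bases) was lower, at -1.58. By role, the median in replicate 6 against the control mean was -1.48 for mitotic kinesins and -1.47 for condensin and chromosome structure, while the cyclins and kinases were at -0.86. RNA quality values were not analysed here, and the part of length in these differences was not tested beyond the alternative with the length trend removed, in which the median of the members was -0.89.

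**Figure D4:**
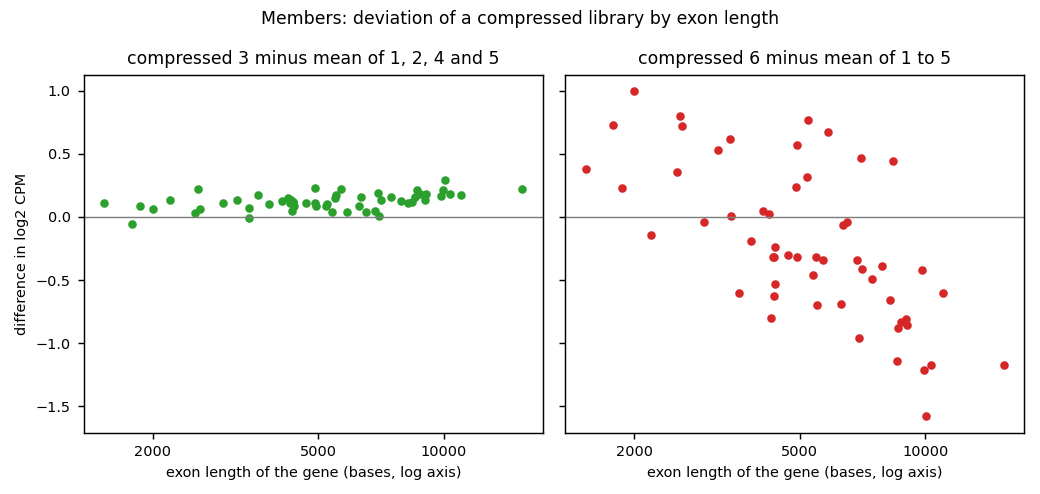
Each point is a member, with exon length on a log x axis and a difference in log2 CPM on the y axis, for compressed replicate 3 against the mean of replicates 1, 2, 4 and 5 (left) and compressed replicate 6 against the mean of replicates 1 to 5 (right). Replicate 3 stays between -0.05 and 0.30, with a Spearman correlation with length of 0.49, while replicate 6 runs from 1.00 (Pttg1, 2000 bases) to -1.58 (Mki67, 10061 bases).

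Other genes of the same machinery, listed from general knowledge, mostly moved the same way. Of 117 tested genes in 7 lists, 90 fell and 2 rose (76.9% and 1.71%), with a median log2 fold change of -0.66, where 21.9% of all tested genes fell and 24.5% rose. Of 33 further kinetochore and checkpoint genes 29 fell and 0 rose (0 at an unadjusted p under 0.05 and 0 by DESeq2), with a median of -0.78. Ska1, a subunit of the complex that couples kinetochores to microtubules (-1.13), and the checkpoint protein gene Zwilch (-1.06) changed most. The 4 not called were Cenpw (-0.25, edgeR adjusted p = 0.22), Hjurp (-0.17, 0.139), Zwint (-0.09, 0.161) and Mad2l1bp (-0.06, 0.548), and all 33 were called lower without replicate 6. All 27 further spindle and cytokinesis genes fell, with a median of -0.88, led by Troap (-1.14), Ccnf, an F-box cyclin (-1.09), and Nek2, a centrosomal kinase (-1.01), and 0 rose (0 at an unadjusted p under 0.05 and 0 by DESeq2).

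Among 10 further regulators of mitotic entry (the Cdc25 phosphatases, Wee1 and Pkmyt1, the Cdk1 subunits Cks1b and Cks2, and Mastl with its substrates), 8 fell and 1 rose. These are 80% and 10%, where 21.9% of all tested genes fell and 24.5% rose. Those that fell included both brakes and accelerators of Cdk1: Wee1, which inhibits it (-1.07), Cdc25c, which activates it (-0.95), and Mastl, the Greatwall kinase (-0.83). Ensa, a substrate of Greatwall that inhibits the phosphatase PP2A-B55, rose from 133 ± 1.39 to 203 ± 8.46 CPM (0.60, edgeR adjusted p = 4.03e-08). Its relative Arpp19 was at 69.2 ± 2.78 and 55.1 ± 17.2 CPM (-0.33, edgeR adjusted p = 0.0879; -0.52 and called lower without replicate 6).

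Genes of the anaphase-promoting complex were called lower less often than the members, but more often than all tested genes. Of 17 genes for its subunits, cofactors and inhibitors 6 fell and 1 rose, with a median of -0.16. These are 35.3% and 5.88%, where 21.9% of all tested genes fell and 24.5% rose. Without replicate 6 the counts were 10 and 2 (32.2% and 33.8% of all tested genes). Its inhibitor Fbxo5 fell most (-1.07), then the subunit Anapc5 (-0.49) and Ube2s, which extends ubiquitin chains (-0.48). Anapc4 was the gene that rose (0.15, edgeR adjusted p = 0.0155), a call lost with library size alone as the scaling or with no filter on low counts, and Anapc2 joined it without replicate 6. Of 13 cohesin genes 9 fell (69.2%, against 21.9% of all tested genes) and 0 rose (0 at an unadjusted p under 0.05 and 0 by DESeq2), with a median of -0.47. Those that fell were led by Esco2, the acetyltransferase of S phase (-1.19), sororin, encoded by Cdca5 (-0.94), and Smc3 (-0.59). Nipbl, the cohesin loader, was at 145 ± 5.28 and 146 ± 35.3 CPM and Esco1 at 39.0 ± 0.638 and 40.6 ± 4.77 CPM, neither called, and both were called higher without replicate 6 (0.13 and 0.12).

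Of 15 genes for the MuvB complex and its partners, 10 fell (66.7%, against 21.9% of all tested genes) and 0 rose (0 at an unadjusted p under 0.05 and 0 by DESeq2), with a median of -0.43. Mybl2, which encodes B-Myb, went from 125 ± 2.51 to 47.4 ± 6.00 CPM, a change of -1.40 ± 0.08 (edgeR adjusted p = 9.74e-09), larger than that of any of the 55 members. Foxm1 went from 131 ± 4.45 to 63.4 ± 15.0 CPM (-1.05 ± 0.15, edgeR adjusted p = 5.77e-05), and Rbl1, which encodes the pocket protein p107, changed by -1.01. Rbl2, which encodes p130, the pocket protein that joins MuvB in resting cells, was at 32.6 ± 1.61 and 33.2 ± 6.62 CPM (edgeR adjusted p = 0.89) and was called higher without replicate 6 (0.13). Lin37, E2f5, Nfya and Nfyb were not called either, and Lin54 was not analysed here.

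The tubulins from which the spindle is built were split, with 7 lower and 4 higher of 11 tested. These are 63.6% and 36.4%, where 21.9% of all tested genes fell and 24.5% rose. Tubb4b (-0.69), Tuba4a (-0.63) and Tubg1, of the nucleating gamma-tubulin complex (-0.61), fell most, and Tubg2 (0.86), Tuba1a (0.64) and Tubb2a (0.48) rose most. Tubg1 was at 72.3 ± 1.71 and 47.2 ± 1.57 CPM and Tubg2 at 1.48 ± 0.149 and 2.68 ± 0.35 CPM, so that the gene that rose remained far less abundant. Tubulin genes are close copies of each other, and how reads shared between them were counted is not given in the sources used here.

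**Figure D5:**
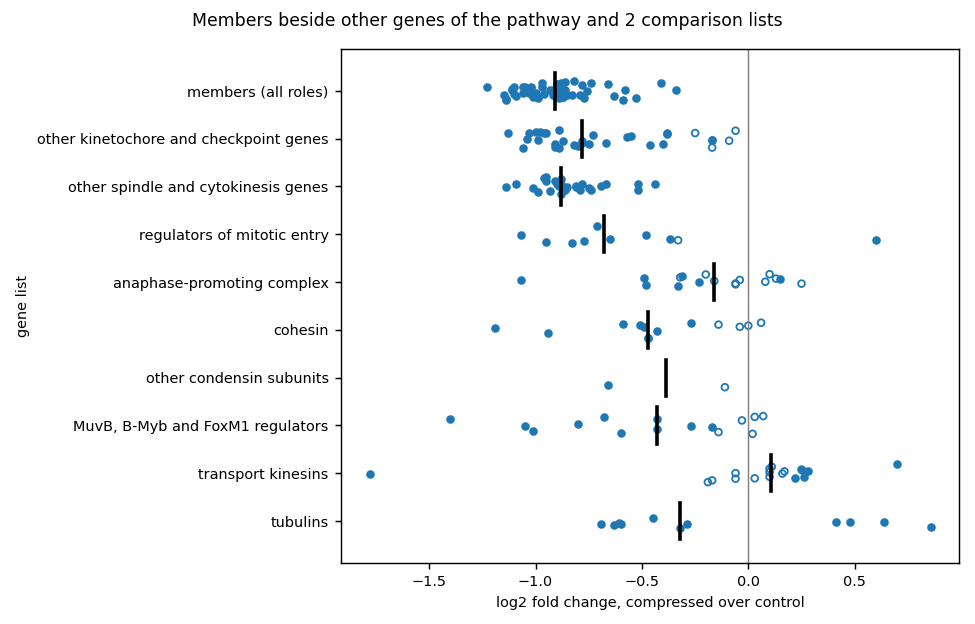
Log2 fold change (x axis) of every tested gene in 10 lists (y axis), filled where edgeR called it and open where it did not, with a black line at each list's median. The members (median -0.91) and the further kinetochore (-0.78) and spindle (-0.88) genes lie to the left, while transport kinesins (0.10) lie around 0 and the tubulins (-0.32) fall on both sides.

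Exons of some members overlap a gene on the opposite strand, and the strand setting of the counting is not given in the sources used here. The protein-coding partners are Elovl1 for Cdc20, Exosc9 for Ccna2, Pdzd11 for Kif4, Mettl15 for Kif18a, Cdc23 for Kif20a, Ppwd1 for Cenpk, Tnnc2 for Ube2c, Lcorl for Ncapg and Rccd1 for Prc1. For Cenpk, with 3589 counts over all libraries against 12799 for Ppwd1, and for Cdc20, with 40147 against 57813 for Elovl1, the partner had more counts than the member, so their values are less certain than the others. Pseudogenes named as a member with the suffix -ps took few reads: 335 counts for Ccnb1-ps over all libraries, 63 for Ccnb2-ps, 6 for Kif22-ps and 0 for Kif4-ps. Copies under other names were not searched for.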

How the data were processed

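The authors aligned reads of directional, mRNA-enriched libraries with STAR 2.7.2, and the submitters' processing notes name GRCm39. They deposited whole-number counts per Ensembl gene for 12 libraries, used here as deposited. The sources used here give neither a counting program nor a strand setting or annotation release. Symbols and exon lengths were matched by gene ID to GENCODE M21 (GRCm38) for 51948 of 56941 IDs, which hold 99.49% of counts. Promoter sequences and their coordinates are RefSeq's on GRCm38.p6, and no coordinate was converted.

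The main test was that of edgeR 4.0.16 under R 4.3.3 (filterByExpr with a minimum count of 10, TMM, quasi-likelihood F test on condition, Benjamini-Hochberg over all 15001 genes, called at 0.05 or less). The SE was obtained from the fold change and F (size of the log2 change divided by the root of F), and log2 CPM used a prior count of 2. Within-library ratios (0.5 added to each count) were compared by exact permutation. Alternatives were DESeq2 1.42.0, RLE factors, library size alone, no filter, a mean count over 50, an adjusted p of 0.01, a replicate block, a length trend removed by lowess, other pseudocounts, each library left out, and a shorter promoter window. The fits were tested on simulated data.

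The members, lists and pairs were chosen with earlier results of these data known. Values in full are given, in each role, for the called members with the largest and the smallest change and, in each list, for up to 3 genes with the largest change and those against the majority. Genes outside this rule, such as Mki67, Top2a, Kif5b, Nipbl, Esco1, Rbl2 and Arpp19, were chosen after their values were seen. Some genes that the rule takes are not reported here.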

Additional observations from a re-analysis of the deposited data

Results flagged for a closer look

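In groups of 6, a library was singled out where its gap to the nearest other library exceeded 0.625 of the whole range (Dixon's 95% critical value), which chance alone gives in about 1 of 20 groups. It happened in 28 of 132 groups tested (21.2%), and the library was compressed replicate 6 each time. Replicate 6 was the high library, with the gap as a share of the range in brackets, for Cdk1 (0.65), Bub3 (0.739), Ube2c (0.678), Pttg1 (0.703), Birc5 (0.736), Spc24 (0.672), Cenpa (0.714), Cenph (0.687) and Cenpk (0.729). It was the low library for Bub1b (0.685), Espl1 (0.634), Incenp (0.828), Kif14 (0.635), Kif18b (0.639), Kif20b (0.684), Knl1 (0.722), Cenpe (0.655), Cenpf (0.689), Ncapd2 (0.71), Ncapg2 (0.638), Top2a (0.718), Mki67 (0.627), Ect2 (0.658) and Anln (0.714). In Pttg1 it stood at 65.1 CPM against 27.2 to 38.5 in the other compressed libraries, and in Mki67 at 152 CPM against 391 to 533.

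The same library stood apart in 4 log2 ratios. Bub1b/Bub3 was -1.45 there and -0.29 or higher in the other compressed libraries (0.856 of the range), Espl1/Pttg1 was -1.16 against 0.45 to 0.78 (0.829), Ncapg/Ncapg2 was 0.85 against -0.01 to 0.18 (0.777) and Aurka/Aurkb 0.60 against 0.14 to 0.26 (0.753). Of the members with exons under 4000 bases in total, 10 of 14 were higher in replicate 6 than in the mean of the other compressed libraries, and of those over 8000 bases 12 of 13 were lower. The trend was not particular to the members: across 14647 tested genes this difference had a Spearman correlation with exon length of -0.55. Whether exon length, RNA quality or the culture made this library differ was not tested.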

How the results depend on the processing

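All 55 members were called lower in every alternative but the removal of the length trend, which left 54 and lost Bub3. Leaving out each library in turn gave 55 lower each time, 14 to 22 members below -1, a median from -0.94 to -0.88 and a summed level of 53.3% to 56.2% of control. Same-numbered libraries did not deviate together (correlations -0.115 to 0.04, 0 of 6 libraries best with their own number), and the main test did not treat them as pairs. Such correlations cannot show whether same-numbered libraries were set up together. With a replicate block 55 members were lower with a median of -0.93. Of 928 alternative values 904 kept their direction and side of the threshold or moved little, 22 moved, 2 newly passed and 0 reversed. Counts within a set fold of the main value were scored as moving little, so 14 members below -1 against 19 is among the 904. Many of the 928 are counts by role, with every member lower or 0 higher. For the anaphase-promoting complex, 0 genes rose at an adjusted p of 0.01, with library size alone, with no filter and with the replicate block. With libraries left out in turn its counts were 5 to 10 lower and 1 to 2 higher, cohesin had 0 to 2 higher, MuvB and partners 0 to 1 higher, other condensin subunits 1 to 2 lower, and transport kinesins 1 to 2 lower and 5 to 11 higher. Other condensin subunits had 2 lower with DESeq2, RLE factors and library size alone. Transport kinesins had 2 lower with the length trend removed and with the replicate block, 3 with library size alone and 0 with a mean count over 50. Ncapg/Ncapg2 was 0.06 to 0.23 with a library left out, and its highest value, without compressed replicate 3, had an adjusted p of 0.0487. Aurka/Aurkb was -0.10 to -0.01, with an adjusted p of 0.0108 without compressed replicate 6. The cause of these differences was not tested. In the 150 bases before the start, 35.4% of members held CHR letters and 27.1% CHR with CCAAT, a window that leaves out the first 50 bases of the transcript. Depth limited no member, since the lowest count was 138 (Cenpk).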
